A study of Rattus norvegicus with 72 samples.

Results

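The 5 transporter genes of the SLC13 and SLC26 families described here are Slc13a1, Slc13a2, Slc13a3, Slc26a1 and Slc26a6. They were taken by symbol from the 2 deposited count tables of 32545 genes each, one table for dissected segments and one for whole kidney. Each symbol belonged to 1 gene ID in both tables (ENSRNOG00000008121, ENSRNOG00000010337, ENSRNOG00000019118, ENSRNOG00000000041 and ENSRNOG00000020450, in the order above), so all 5 members were found. The 72 libraries came from adult male Sprague-Dawley rats on normal chow that had the right kidney removed or underwent a sham operation in which the right renal pedicle was dissected, and that were killed 24, 48 or 72 h later. Microdissected glomeruli, tubules of the S1 segment (where the proximal tubule begins) and whole left kidneys were sequenced, with 4 libraries for each tissue, surgery and time. The labels do not say that the 4 libraries of a group are from separate rats, nor how many glomeruli or tubules went into a segment library, so each p-value is set by how far the libraries of a group vary, some of which may be technical.

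Inorganic sulfate and citrate are filtered at the glomerulus and reclaimed by the proximal tubule. On the brush border, the sodium-coupled carrier NaS1 (Slc13a1) takes up sulfate and NaDC1 (Slc13a2) takes up citrate, succinate and other dicarboxylates, which makes NaDC1 a determinant of urinary citrate. On the basolateral side, NaDC3 (Slc13a3) brings dicarboxylates in from blood, which drives the exchange of organic anions, and Sat1 (Slc26a1) lets sulfate leave in exchange for bicarbonate or oxalate. Slc26a6 is an apical exchanger of chloride, oxalate and other anions and is found in many epithelia.

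RefSeq promoter entries (rat assembly GRCr8) matched by symbol for 4 of the 5 genes, Slc13a1, Slc13a2, Slc13a3 and Slc26a1. The 250 bases before the annotated start are printed for Slc13a1, the member that fell after nephrectomy in whole kidney, and for Slc13a3, the most abundant member per gene length, which did not pass the test there. Capitals mark matches on either strand to TATAAA (a core promoter element) or AGGTCA (a half-site of nuclear receptors), and positions count back from the start, with -1 as the last base before it.
Slc13a1, chr4:53612705-53612954, minus strand: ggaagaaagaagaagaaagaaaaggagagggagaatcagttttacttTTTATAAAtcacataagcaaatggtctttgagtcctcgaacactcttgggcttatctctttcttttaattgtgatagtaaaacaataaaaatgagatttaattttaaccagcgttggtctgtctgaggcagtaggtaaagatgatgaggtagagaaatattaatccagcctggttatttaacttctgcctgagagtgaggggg
Slc13a3, chr3:174623894-174624143, minus strand: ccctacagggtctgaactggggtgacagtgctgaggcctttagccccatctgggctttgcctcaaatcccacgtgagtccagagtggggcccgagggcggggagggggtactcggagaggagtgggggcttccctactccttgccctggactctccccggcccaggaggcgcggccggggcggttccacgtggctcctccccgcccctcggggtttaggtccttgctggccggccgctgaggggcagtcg
The Slc13a1 window was poor in G and C, at 36.4%, and the Slc13a3 window was rich in them, at 69.2%, against a median of 51.2% over 33469 RefSeq windows of that length. The windows of Slc13a2 and Slc26a1 held 53.6% and 50.0%. In Slc13a1, TATAAA or its reverse complement lay at -203 and -201, where the matches on the 2 strands overlap. Neither exact run of letters was found in the windows of Slc13a2, Slc13a3 and Slc26a1, and variants of the 2 motifs were not searched for. Of all windows, 12.9% held TATAAA and 14.1% AGGTCA, and AGGTCA was in none of the 4. These are matches of letters only. The labels name no genome build for the count tables, and no coordinate was carried over to them.

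Total counts in genes ranged from 10102869 to 55517383 in whole kidney, 6402916 to 87368807 in S1 tubules and 2643258 to 61976179 in glomeruli. The defining markers matched the tissue labels in the sham segment libraries used: 6 podocyte genes summed to 10440 to 16425 counts per 1000000 (CPM, here of the library total) in the sham glomeruli used and to 18.7 to 36.8 CPM in sham S1 tubules, and 8 genes of the S1 and S2 proximal tubule to 897 to 2529 CPM and 8661 to 18507 CPM. Marker sums of the nephrectomy segment libraries are not given here. One pair went against its labels. The library labelled sham 24 h glomeruli number 2 held 537 CPM of Slc13a1 and 767 CPM of Slc13a3, against 1.34 to 12.9 and 0.896 to 10.8 CPM in the other 11 sham glomerular libraries, and the library labelled S1 of that number held 36.4 CPM of Slc13a1 against 155 to 518 CPM. Both were left out, which leaves 23 libraries for each segment. In whole kidney, the 4 libraries of 24 h numbered 3 and 4 stood apart in both surgeries. Their TMM scaling factors were the 4 lowest, 0.452 to 0.685, against 0.835 to 1.57 in the other 20. Some results, those of Slc13a1 and Slc26a1 among them, are given without these libraries too. The tests of pathway genes kept them. A nephrectomy 72 h glomerular library (number 3, the shallowest) and a nephrectomy 72 h S1 library (number 2, with 8.0% of its uniquely mapped reads in genes) are marked where a value rests on them.

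After sham surgery, the transporters were compared within a tissue by RPKM or FPKM, the authors' read or fragment numbers scaled to gene length and library size. In S1 tubules Slc13a3 was the most abundant, at 174 ± 56.4 RPKM (mean ± SD, n = 11), followed by Slc13a1 at 102 ± 35.4, Slc26a1 at 54.3 ± 12.9 and Slc13a2 at 48.6 ± 18.1. Slc26a6 stood at 1.11 ± 0.377 RPKM, below each of the others in 11 of 11 libraries. Slc13a3 exceeded Slc13a1 in 10 of 11 libraries, and Slc13a1 exceeded Slc26a1 in 10 of 11. Slc26a1 and Slc13a2 could not be ranked: Slc26a1 was the higher in 7 libraries and Slc13a2 in 4.

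Sham whole kidney kept that order. Slc13a3 measured 131 ± 59.4 FPKM (n = 12), Slc13a1 50.4 ± 28.7, Slc26a1 17.7 ± 8.47, Slc13a2 16.4 ± 9.10 and Slc26a6 1.40 ± 0.541. Slc13a3 was above Slc13a1, and Slc13a1 above Slc26a1, in 12 of 12 libraries, while Slc26a1 was above Slc13a2 in only 7 of 12. Without the 4 libraries that stood apart (2 of them sham) the means were 148 ± 47.9, 57.7 ± 25.5, 20.2 ± 6.60, 18.1 ± 9.03 and 1.59 ± 0.351 FPKM (n = 10). The sham spread of Slc13a1 was wide, from 8.01 to 99.5 FPKM. Kidney and segment libraries were made with different kits and tabulated apart, so their levels stand side by side with no test. In bulk RNA, fewer cells of a type and less RNA per cell cannot be told apart.

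In glomeruli the members were near the bottom of the range. Slc26a1 stood at 2.89 ± 0.869 RPKM (n = 11), Slc26a6 at 2.61 ± 0.654, Slc13a1 at 2.20 ± 1.44, Slc13a3 at 1.58 ± 0.912 and Slc13a2 at 1.26 ± 0.862. The neighbours in this order were within their spread, and Slc26a1 was above Slc26a6 in only 5 of 11 libraries. Slc26a6 was the one member with a higher mean RPKM in glomeruli than in S1 tubules.

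**Figure D1:**
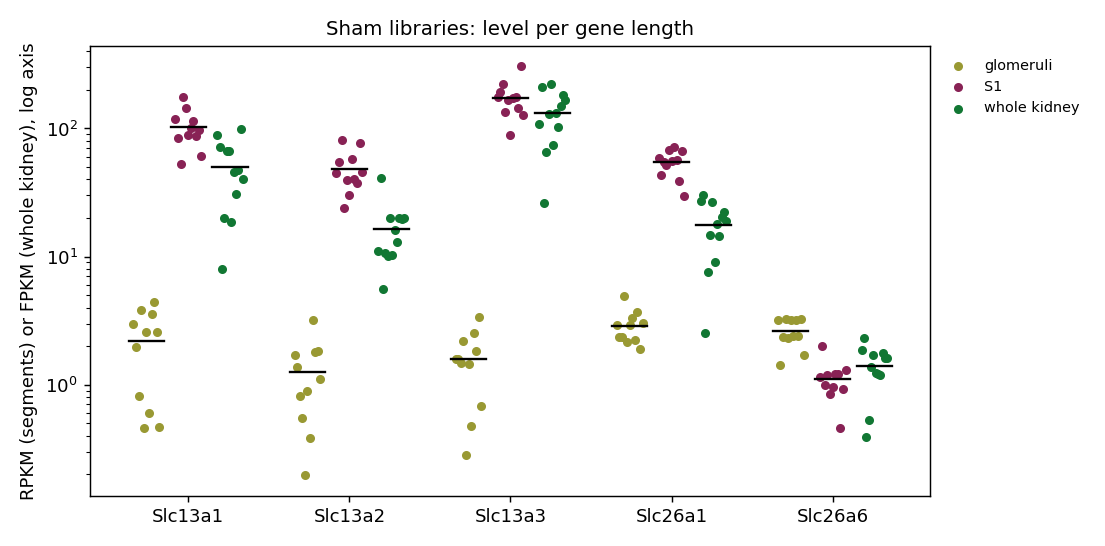
Level per gene length of the 5 transporters in each sham library, in RPKM for glomeruli and S1 tubules and FPKM for whole kidney, on a log axis; points are libraries (n = 11, 11 and 12) and bars are means. Slc13a3 is highest in S1 tubules and in whole kidney, and Slc26a6 lies between 0.391 and 3.27 in all 3 tissues.

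Tested in one edgeR fit of both segments, 4 of the 5 members were lower in glomeruli than in S1 tubules after sham surgery, where 39.7% of 24488 genes differed at an adjusted p under 0.05 (18.6% lower in glomeruli). The log2 difference was -8.60 ± 0.47 (SE, 11 libraries a segment) for Slc13a3, -7.37 ± 0.46 for Slc13a1, -7.23 ± 0.45 for Slc13a2 and -5.98 ± 0.35 for Slc26a1, with adjusted p from 1.27e-20 to 9.01e-19 (edgeR). All 11 glomerular libraries were below all 11 S1 libraries for these 4 genes. The share of all genes that did so was not counted, so this separation is not shown to be particular to them. The 8 markers of the S1 and S2 proximal tubule were also lower in glomeruli (8 of 8, median -7.79), Lrp2 least, at -3.21. Their sum in sham glomeruli was 897 to 2529 CPM of the library total, and its part in the glomerular levels of the transporters was not tested. Slc26a6 differed by -0.56 ± 0.27 (adjusted p = 0.0980) and its direction depended on the scaling: without TMM factors it was 1.199 higher in glomeruli (adjusted p = 0.000190), and on RPKM 0.74 to 1.14 higher. The median of all genes in this fit was 0.69, and dropping the TMM factors left the other 4 members lower, at -6.83, -5.53, -5.49 and -4.24. Without the sham 72 h glomerular library number 1 or number 3, the TMM-scaled Slc26a6 difference was -0.74 (adjusted p = 0.0414) or -0.77 (adjusted p = 0.0362).

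Of the members, 3 share sequence space with another gene in the RefSeq table, and the labels do not say whether counting used strand, so such values are uncertain. Slc26a1 overlaps Idua, which encodes a lysosomal enzyme. In CPM of the library total, Idua was at 57.0 (median of 11, range 48.3 to 78.8) in sham glomeruli against 10.9 CPM of Slc26a1 there, and at 10.03 CPM in sham S1 tubules against 209 CPM. Slc13a3 overlaps Elmo2, with medians of 128 CPM in sham glomeruli and 17.4 CPM in sham S1 tubules, and Slc26a6 overlaps Celsr3, at 6.12 and 1.57 CPM. The low glomerular values of these 3 members therefore lie beside an overlapping gene of equal or higher count, or, for Slc26a6, of similar count, and a part of such reads in them was not tested. Slc13a1 overlaps only an annotated pseudogene, Thrap3-ps3, and Slc13a2 overlaps none.

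After nephrectomy, Slc13a1 fell in whole kidney and no other member passed the test. Over the 3 times its level was 33.6% of sham (log2 -1.57 ± 0.24 SE, 95% interval -2.08 to -1.07, adjusted p = 0.00624, edgeR, 12 libraries a group). The same fit called 2.86% of 15678 genes, 265 higher and 183 lower (1.17% of genes lower). All 12 nephrectomy libraries were below the sham mean of their time, which describes the same values as the test. The share of all genes for which this held was not counted.

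By library, Slc13a1 in sham kidneys at 24 h read 223, 133, 52.2 and 101 CPM (numbers 1 to 4, scaled by TMM), and after nephrectomy 40.7, 39.8, 12.9 and 19.7 CPM. Every nephrectomy library was below every sham library at this time, as for 1.62% of genes. At 48 h the sham libraries read 198, 159, 61.5 and 138 CPM and the nephrectomy libraries 89.4, 65.0, 57.1 and 49.6 CPM. Here the groups overlapped, because sham number 3 lay among the nephrectomy values. At 72 h sham read 86.1, 116, 241 and 102 CPM and nephrectomy 46.5, 39.2, 64.8 and 45.1 CPM, again with no overlap, as for 5.43% of genes. The nephrectomy values were close together at 48 and 72 h, and the sham values spread by more.

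Taken one time at a time, the log2 difference of Slc13a1 was -2.15 ± 0.43 at 24 h (adjusted p = 0.0466, where 0.236% of genes were called), -1.09 ± 0.41 at 48 h (adjusted p = 0.354) and -1.48 ± 0.42 at 72 h (adjusted p = 0.668), where 0% and 0.00638% of genes were called. DESeq2 called 166 genes and voom 6 at 48 h, and 1619 were at an unadjusted p under 0.05 in edgeR. The effect was not shown to differ between the times (adjusted p = 0.999, edgeR). Over 48 and 72 h alone it was -1.29 ± 0.29 (adjusted p = 0.0347), and 0.982% of genes were called there, 141 higher and 13 lower (0.0829%), Slc13a1 among the 13. Without the 4 libraries of 24 h numbered 3 and 4, the difference over the 3 times was -1.57 (adjusted p = 0.00158) and at 24 h -2.15 (adjusted p = 0.00670). Leaving out any 1 of the 24 libraries kept the call over the 3 times, between -1.66 and -1.43.

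The calls for fewer times were less steady. At 24 h the call was kept only without sham 24 h number 2, 3 or 4, sham 48 h number 3, or sham 72 h number 1 or 3, and was lost without any of the other 18 libraries, with values from -2.41 to -1.73 over all 24. It was also lost with sample quality weights in limma voom (-0.98, adjusted p = 0.200). Over 48 and 72 h it was lost without any 1 of 13 libraries (sham 48 h numbers 1, 2 and 4, all 4 sham and all 4 nephrectomy libraries of 72 h, and nephrectomy 48 h numbers 3 and 4), with values from -1.41 to -1.07. On the authors' FPKM, tested with limma, no gene passed and Slc13a1 over the 3 times was -1.42 with a pseudocount of 1 (adjusted p = 0.280) and -1.49 with 0.1 (adjusted p = 0.164).

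**Figure D2:**
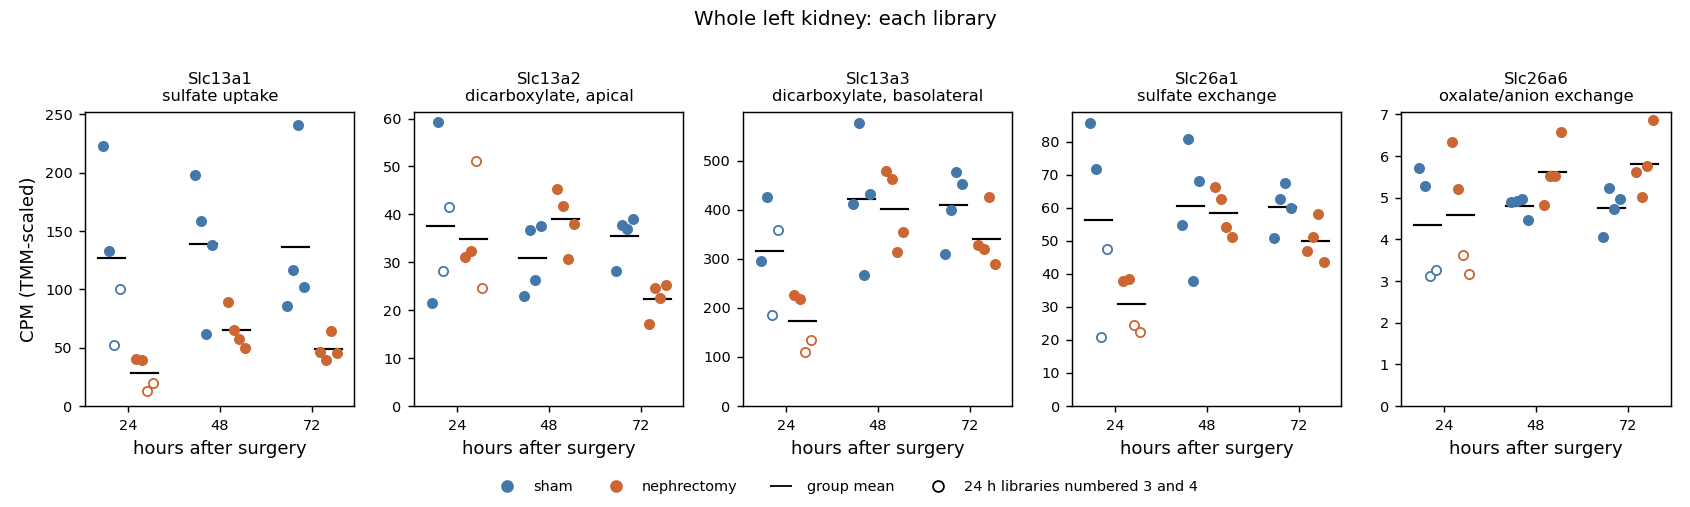
CPM of each transporter in each whole kidney library by hours after surgery, with sham in blue, nephrectomy in orange and bars at the group means of 4; hollow points are the 24 h libraries numbered 3 and 4. Slc13a1 after nephrectomy lies between 12.9 and 89.4 CPM against 52.2 to 241 CPM after sham surgery.

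Proximal tubule markers also had lower values after nephrectomy. The 8 S1 and S2 markers (Slc5a2, Slc34a1, Slc4a4, Lrp2, Cubn, Slc5a12, Slc6a19 and Slc7a7) had a median log2 difference of -0.82 over the 3 times, with 8 of 8 below 0 and 0 of 8 past the test, and of -0.28 over 48 and 72 h. All genes together had a median of -0.01. On the TMM scale of the transporter values, the markers summed to 3976 to 4552 CPM in the 4 nephrectomy kidneys of 24 h against 5421 to 7654 CPM in sham, to 4119 to 5536 against 4146 to 6000 CPM at 48 h, and to 4365 to 5320 against 5327 to 7255 CPM at 72 h. The sums thus lay below every sham library at 24 h and at 72 h, as 1.62% and 5.43% of genes did, and overlapped at 48 h. None of the 8 was at 0 in any library, and their part in the Slc13a1 result beyond the ratio and the covariate given next was not tested. The 5 markers of the S3 segment had a median of -0.01, with none past the test.

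Slc13a1 was also set against the sum of these markers, in which abundant genes weigh most. At 24 h that sum fell by less than the median marker, which differed by -2.19, as Slc13a1 did by -2.15. A ratio to the sum can therefore be lower where a ratio to the median marker is not. Per 1000 CPM of S1 and S2 markers Slc13a1 stood at 2.86 to 10.2 CPM after nephrectomy and 9.58 to 41.1 CPM after sham at 24 h, at 10.999 to 16.1 against 14.8 to 37.3 CPM at 48 h, and at 8.17 to 12.2 against 16.2 to 33.2 CPM at 72 h. With all libraries, only at 72 h were all 4 nephrectomy ratios below all 4 sham ratios, as for 0.198% of genes. The marker sum itself was lower at that time, and 31.9% of genes had all 4 nephrectomy ratios above all 4 sham ratios. Without the 4 libraries that stood apart, the 24 h ratios were 9.76 to 10.2 CPM after nephrectomy and 17.4 to 41.1 CPM after sham (2 libraries each). For comparison, the ratio of Slc13a3 at 72 h was 59.0 to 80.2 after nephrectomy and 57.6 to 73.0 after sham, so these ranges overlapped. With the mean log2 level of the markers as a covariate, a setting added after the data were seen, the Slc13a1 difference over the 3 times was -1.196 (adjusted p = 0.00179). With that covariate and without the 4 libraries that stood apart it was -0.80 (adjusted p = 0.660), and then no gene passed. At 24 h alone, where the markers differed most (median -2.19), the covariate left Slc13a1 at -1.26 (adjusted p = 0.218), and without the 4 libraries at -0.26 (adjusted p = 0.883).

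**Figure D3:**
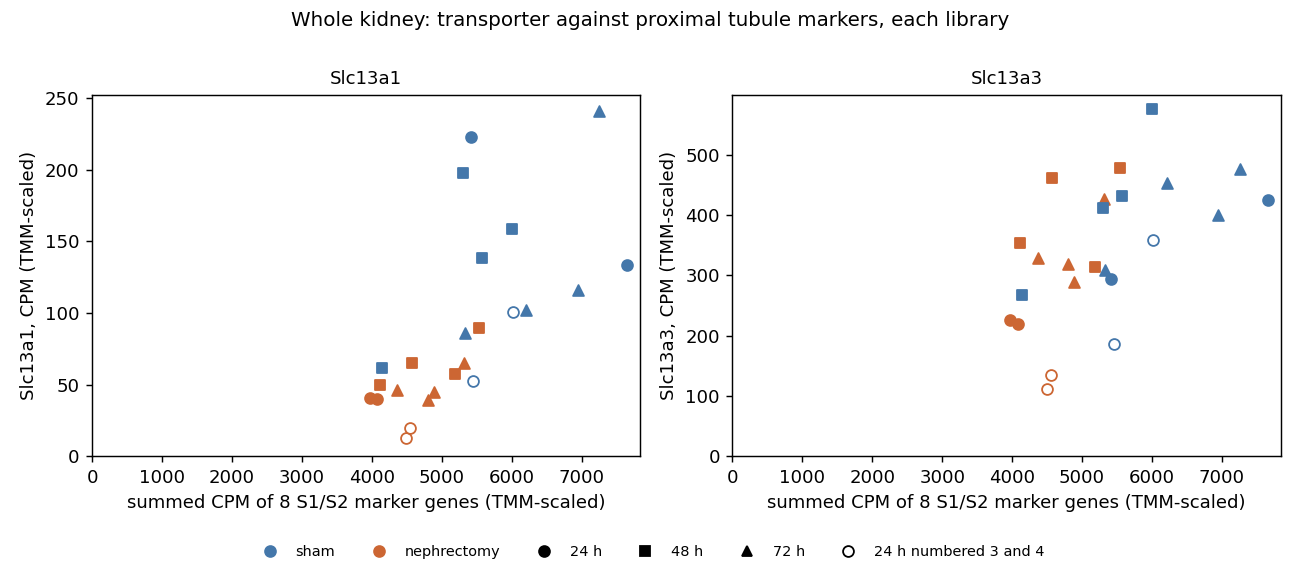
Slc13a1 (left) and Slc13a3 (right) against the sum of 8 S1 and S2 marker genes, both in TMM-scaled CPM, in the 24 whole kidney libraries; colour is surgery, shape is time, and hollow points are the 24 h libraries numbered 3 and 4. Where the marker ranges of both surgeries overlap, from 4146 to 5536 CPM, Slc13a1 lies at 12.9 to 89.4 CPM in 9 nephrectomy libraries and at 52.2 to 223 CPM in 5 sham libraries, and the ranges overlap for both genes.

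Slc26a1, the sulfate exit route, differed by -0.39 ± 0.17 over the 3 times (adjusted p = 0.218). At 24 h its sham libraries read 85.8, 71.6, 20.8 and 47.5 CPM and its nephrectomy libraries 37.7, 38.4, 24.6 and 22.5 CPM, with overlap only through sham number 3. At 48 h sham read 54.9, 80.8, 37.8 and 68.2 CPM and nephrectomy 66.2, 62.7, 54.3 and 51.1 CPM, and at 72 h sham read 50.8, 62.6, 67.6 and 59.9 CPM and nephrectomy 46.9, 51.2, 58.2 and 43.7 CPM. The groups overlapped at each time. At 24 h the difference was -0.87 ± 0.29 (adjusted p = 0.201), and without sham number 3 it was -1.14 (adjusted p = 0.0112). Without that library the difference over the 3 times was -0.48 (adjusted p = 0.0342), and without all 4 libraries that stood apart -0.46 (adjusted p = 0.0296), both past the threshold. Sample quality weights in limma voom turned it to 0.02 (adjusted p = 0.952). Over 48 and 72 h it was -0.16 ± 0.20 (adjusted p = 0.779).

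Slc13a3, the basolateral dicarboxylate carrier, differed by -0.40 ± 0.15 over the 3 times (adjusted p = 0.162), and most of this lay at 24 h, where it was -0.87 ± 0.26 (adjusted p = 0.148). Its 24 h sham libraries read 295, 425, 186 and 358 CPM and its nephrectomy libraries 227, 219, 111 and 134 CPM. They overlapped through sham number 3, without which the 24 h difference was -1.06 (adjusted p = 0.0324). That was the only 1 of 24 fits with a library left out that passed. Of 11 other settings 1 passed, with 24 h values from -1.04 to 0.22. The effect on Slc13a3 was not shown to differ between the times (adjusted p = 0.999, edgeR). At 48 h sham read 412, 576, 267 and 431 CPM and nephrectomy 479, 462, 315 and 354 CPM, and at 72 h sham read 309, 400.1, 477 and 453 CPM and nephrectomy 328, 319.8, 427 and 289 CPM. Both pairs of groups overlapped, and over 48 and 72 h the difference was -0.17 ± 0.19 (95% interval -0.55 to 0.22, adjusted p = 0.741).

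Slc13a2, the apical citrate carrier, differed by -0.15 ± 0.15 over the 3 times (95% interval -0.45 to 0.15, adjusted p = 0.628), with unlike values by time. At 24 h sham read 21.5, 59.3, 28.1 and 41.6 CPM and nephrectomy 31.2, 32.4, 51.2 and 24.7 CPM. At 48 h sham read 22.9, 36.7, 26.3 and 37.6 CPM and nephrectomy 45.3, 41.8, 30.7 and 38.1 CPM, so that 3 of 4 nephrectomy libraries were above every sham library. At 72 h sham read 28.2, 37.8, 37.0 and 39.0 CPM and nephrectomy 17.1, 24.7, 22.5 and 25.3 CPM, and all 4 were below every sham library, as for 5.43% of genes. The difference was 0.33 ± 0.25 at 48 h (adjusted p = 0.636) and -0.67 ± 0.25 at 72 h (adjusted p = 0.809). The test of a difference between the times gave an adjusted p of 0.928 (edgeR). At 72 h the call depended on the fit: it passed with the 8 libraries of that time alone (-0.66, adjusted p = 0.0416) and with sample quality weights (-0.74, adjusted p = 0.00960).

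Slc26a6, the anion exchanger, differed by 0.21 ± 0.12 over the 3 times (adjusted p = 0.377). At 24 h sham read 5.73, 5.27, 3.11 and 3.27 CPM and nephrectomy 6.34, 5.22, 3.61 and 3.18 CPM, and in both groups the libraries numbered 3 and 4 were the low ones. At 48 h sham read 4.90, 4.92, 4.96 and 4.46 CPM and nephrectomy 4.83, 5.52, 5.53 and 6.57 CPM, and at 72 h sham read 4.06, 5.24, 4.73 and 4.97 CPM and nephrectomy 5.61, 5.01, 5.77 and 6.87 CPM. At these 2 times 8 of 8 nephrectomy libraries were above their sham mean, with overlap at each, and the share of all genes like this was not counted. The counts behind these values were 25 to 308 a library. The difference was 0.36 with sample quality weights and 0.36 with the marker covariate, both past the threshold. Per 1000 CPM of S1 and S2 markers, Slc26a6 at 72 h was 1.04 to 1.40 CPM after nephrectomy and 0.652 to 0.800 CPM after sham, with no overlap, as for 31.9% of genes.

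In dissected S1 tubules no member passed the test at any time. The edgeR fit of 18372 genes called 0 (0%) over the 3 times, with 466 at an unadjusted p under 0.05; DESeq2 called 11 and limma voom with sample quality weights 0. At 72 h alone edgeR called 0 as well (2428 at an unadjusted p under 0.05), while DESeq2 called 744, none of them a member. Slc13a1 differed by -0.07 ± 0.20 over the 3 times (95% interval -0.48 to 0.35, adjusted p = 1.00). Its sham libraries read 309, 200.3 and 163 CPM at 24 h (3 libraries), 569, 428, 269 and 288 CPM at 48 h and 318, 456, 197 and 233 CPM at 72 h. Its nephrectomy libraries read 233, 312, 272 and 131 CPM, 378, 376, 392 and 288 CPM, and 411, 174, 288 and 199 CPM. These groups overlapped at each time, and 7 of 12 nephrectomy libraries were below their sham mean.

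The kidney and the S1 effects were set against each other in a joint fit of 47 libraries, added after the data were seen. For Slc13a1 the kidney effect minus the S1 effect was -1.53 ± 0.34 (log2, 95% interval -2.22 to -0.84), with an adjusted p of 0.307 over 21602 genes, so it did not pass, and edgeR called 0 genes (0%, 601 at an unadjusted p under 0.05, and 0 by limma with sample quality weights). Leaving out each library in turn gave -1.62 to -1.39 and adjusted p from 0.0504 to 0.864. That fit shares one spread between libraries of different kits. For the other 4 members the difference of effects was between -0.46 and 0.09, with intervals that include 0.

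Slc13a2 in S1 tubules had the same signs by time as in whole kidney, at 0.64 ± 0.44 at 48 h (adjusted p = 1.00) and -0.82 ± 0.44 at 72 h (adjusted p = 0.429), and passed at neither in edgeR; with sample quality weights it passed at 48 h (0.79, adjusted p = 0.0400). At 48 h sham tubules read 59.7, 90.6, 71.9 and 127 CPM and nephrectomy tubules 154, 149, 102 and 142 CPM, 3 of 4 above every sham library. At 72 h sham read 86.5, 152, 121 and 136 CPM and nephrectomy 86.6, 7.96, 104 and 81.9 CPM. The lowest of these is the library with 8.0% of reads in genes, and without it the 72 h difference was -0.45 (adjusted p = 0.994). That library was also lowest in Slc13a3 (78.2 CPM), Slc26a1 (18.4 CPM) and Slc26a6 (1.01 CPM), but for Slc13a1 it read 174 CPM, near the 199 CPM of another library of its group.

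Slc26a1 in S1 tubules at 48 h read 212, 255, 216 and 255 CPM after sham and 259, 263, 273 and 309.6 CPM after nephrectomy. All 4 nephrectomy libraries were above all 4 sham libraries, as for 2.92% of genes, and the difference was 0.24 ± 0.40 (adjusted p = 1.00). Over the 3 times Slc26a1 differed by -0.19 ± 0.24, Slc13a3 by 0.01 ± 0.26, Slc13a2 by -0.23 ± 0.26 and Slc26a6 by 0.07 ± 0.27, each with an adjusted p of 1.00. The S1 and S2 markers in these libraries had a median of -0.10, with 0 of 8 past the test.

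**Figure D4:**
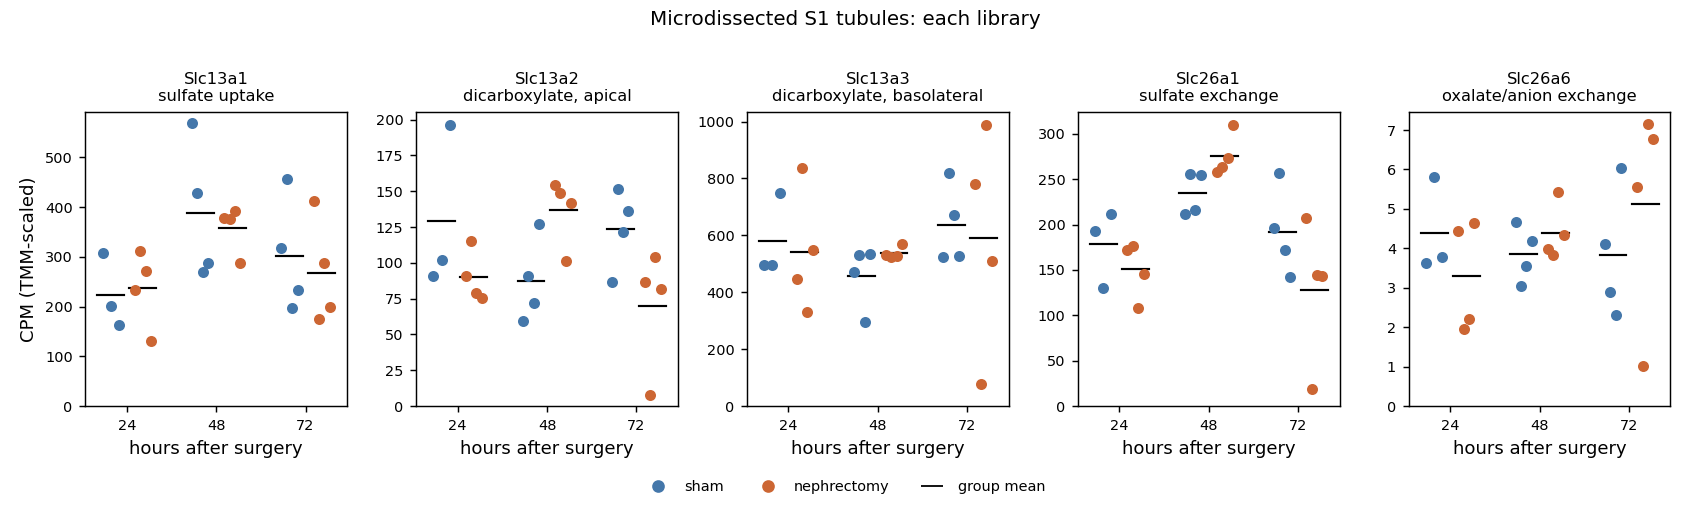
CPM of each transporter in each S1 tubule library by hours after surgery, with sham in blue (3 libraries at 24 h), nephrectomy in orange and bars at the group means. Slc13a1 overlaps between the groups at each time, and 1 nephrectomy library at 72 h is low in the other 4 genes.

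In glomeruli no member passed at any time, and edgeR called 0 of 22405 genes over the 3 times (0%, 472 at an unadjusted p under 0.05; DESeq2 called 3 and limma with sample quality weights 2). The differences over the 3 times were 0.28 ± 0.40 for Slc13a1, 0.19 ± 0.42 for Slc13a2, 0.20 ± 0.36 for Slc13a3, -0.09 ± 0.24 for Slc26a1 and 0.04 ± 0.21 for Slc26a6. The counts behind them were low, from 14 to 204 a library for Slc13a1 and from 5 to 121 for Slc13a2. At 72 h Slc13a1 read 6.07, 6.17, 37.3 and 7.62 CPM after nephrectomy and 9.82, 11.1, 6.31 and 1.51 CPM after sham. The third nephrectomy value is from the shallowest library, and without it the 72 h difference of Slc13a1 went from 0.96 to -0.13 and that of Slc13a2 from 0.76 to -0.85. The difference of the nephrectomy effect between S1 tubules and glomeruli lay between -0.35 and 0.02 for the 5 members, with adjusted p of 1.00 and 0 genes called of 24488 (0%, edgeR, 622 at an unadjusted p under 0.05, and 0 by DESeq2).

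**Figure D5:**
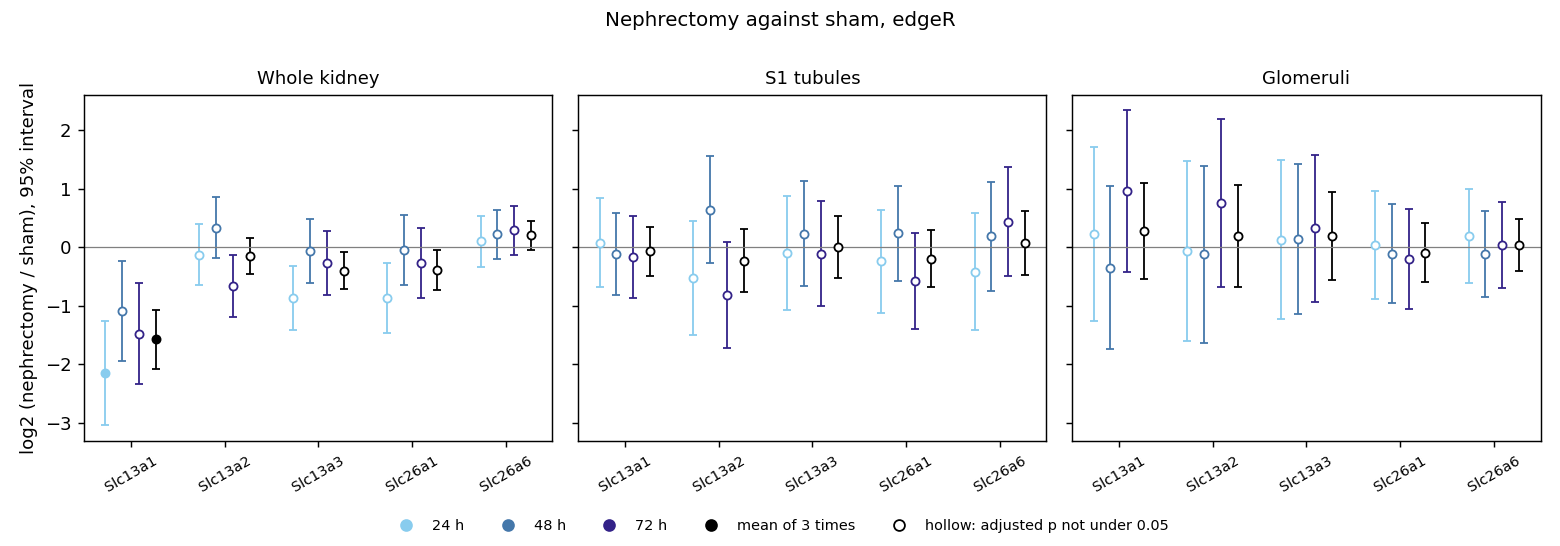
Log2 difference of nephrectomy against sham for each transporter by tissue and time, with 95% intervals; filled points passed an adjusted p under 0.05. In this plot only Slc13a1 in whole kidney, at 24 h (-2.15) and over the 3 times (-1.57), is filled.

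Genes that act with these transporters were read from lists of their pathways. In whole kidney over the 3 times, 1 of 8 other dicarboxylate carriers and receptors tested fell, where 1.17% of all genes did. It was Slc22a8, the organic anion transporter OAT3 that is driven by the dicarboxylate gradient NaDC3 maintains, at -0.996 ± 0.22 (adjusted p = 0.0157, edgeR). Its mean was 22.5 ± 12.5 CPM after nephrectomy and 107 ± 43.3 CPM after sham at 24 h (SD, n = 4). At 48 h it was 97.5 ± 26.1 CPM after nephrectomy and 105 ± 34.4 CPM after sham, and at 72 h 78.4 ± 17.5 and 122 ± 24.6 CPM. The median of that list was -0.20. OAT1 (Slc22a6), the partner of OAT3 in the same uptake, was at -0.34 (adjusted p = 0.141), and the mitochondrial citrate carrier Slc25a1 at 0.07 (adjusted p = 0.654). The tests of all these lists kept the 4 libraries that stood apart. The S1 and S2 markers were also lower in this fit, and their part in the values of pathway genes was not tested.

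Of the genes of citrate and dicarboxylate metabolism, 2 of 19 fell and 0 rose, with a list median of -0.02, where 1.17% of all genes fell. Idh1, the cytosolic isocitrate dehydrogenase, was at -0.57 ± 0.12 (adjusted p = 0.0149), from 94.5 ± 20.1 to 64.2 ± 4.28 CPM at 24 h and from 128 ± 44.4 to 75.6 ± 9.23 CPM at 72 h. At 48 h it was 90.8 ± 24.0 CPM after sham and 68.8 ± 9.02 CPM after nephrectomy, and the groups overlapped. Suclg2, a subunit of the succinate-CoA ligase that makes GTP, was at -0.40 ± 0.10 (adjusted p = 0.0249). Of the genes that make sulfate from cysteine and sulfide, 1 of 11 fell: Suox, the sulfite oxidase that performs the last step to sulfate, at -0.53 ± 0.10 (adjusted p = 0.0114). At 72 h Suox was 26.1 to 29.0 CPM after nephrectomy and 35.1 to 43.8 CPM after sham, with no overlap, as for 5.43% of genes that lay below sham. At 24 h it was 28.9 to 31.7 and 36.3 to 57.0 CPM, with no overlap, as for 1.62% of genes. At 48 h the ranges overlapped, at 27.9 to 47.8 CPM after nephrectomy and 40.3 to 70.3 CPM after sham.

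Among partners and regulators, 1 of 12 fell, where 1.17% of all genes did: Pdzk1, a brush border scaffold that binds transporters, at -0.49 ± 0.11 (adjusted p = 0.0216). Of the transcription factors on that list, Hnf4a was at -0.22 (adjusted p = 0.143), Vdr at -0.23 (adjusted p = 0.347) and Thrb at -0.15 (adjusted p = 0.593), none past the test. No gene passed among 12 for sulfate activation and sulfation (Sult2b1, 0.34, adjusted p = 0.263, and Sult4a1, 0.54, adjusted p = 0.337), 5 for oxalate metabolism (Agxt2, -0.57, adjusted p = 0.0715, and Grhpr, -0.40, adjusted p = 0.0828), 2 SLC13 relatives (Slc13a4, -0.19, and Slc13a5, 0.15) and 6 SLC26 relatives (Slc26a2, 0.19, adjusted p = 0.270, and Slc26a4, -0.18, adjusted p = 0.396). Over 48 and 72 h none of the listed genes passed, with Idh1 at -0.58 (adjusted p = 0.0603) and Suox at -0.48 (adjusted p = 0.0641), and at 24 h only Slc22a8 did (-2.24, adjusted p = 0.0273). In S1 tubules and in glomeruli 0 genes of any list passed in these contrasts.

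Between segments after sham surgery, 39.7% of all genes tested differed and 18.6% were lower in glomeruli. All 19 genes of citrate and dicarboxylate metabolism were lower in glomeruli (median -3.17, against 0.69 over all genes), as were 9 of 11 for sulfate from cysteine and sulfide, 5 of 6 for oxalate metabolism and 9 of 12 partners and regulators, Hnf4a among them at -8.43. The SLC26 relatives were mixed, with 3 higher, 3 lower and 3 not past the test: Slc26a10 was 4.28 higher in glomeruli and Slc26a4, the chloride-iodide exchanger pendrin, was at -2.78. The scaling shift of this fit applies to these values too.

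Genes whose levels ran most like each member were read by Pearson's r of log2 CPM across the 20 whole kidney libraries other than the 4 that stood apart, with the value over all 24 after it, as a description over libraries that share 2 surgeries and 3 times. Slc13a1 ran with Folh1 (r = 0.94 and 0.95) and Cyp2e1 (0.93 and 0.91). Slc26a1 ran with Fam151a (0.92 and 0.96), Slc30a2 and Slc22a5, and Slc13a3 with Slc16a9 (0.93 and 0.60), Pc and Slc22a6. Slc13a2 and Slc26a6 ran less closely with any gene than the other members did. The nearest to Slc13a2 was Cry2, a clock repressor (0.83 and 0.70), then Thbs1 and Fbxo21. Slc26a6 ran with Fdps (0.84 and 0.27), Polh and Ptges. Among the members, Slc13a1 and Slc26a1 had r = 0.78 and 0.79, Slc13a1 and Slc13a3 0.60 and 0.78, and Slc13a1 and Slc13a2 0.23 and 0.08.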

How the data were processed

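For glomeruli and S1 tubules the kit was NuGEN Ovation RNA-seq V2 with single-end reads; for whole kidney it was the Illumina TruSeq Stranded kit, HT or LT, with paired-end reads, per the labels' protocols. The submitters' processing notes name Trimmomatic 0.32, STAR 2.4.0.1, HTSeq and SAMtools. The authors deposited count tables of whole-number reads per gene. They also deposited RPKM tables (segments) and FPKM tables (whole kidney), named so per the file headers. Genome build, annotation and strand setting: not given in the sources used here. The 5 summary entries of HTSeq were left out.

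Groups came from the labels. Counts were fitted per tissue with edgeR 4.0.16 (R 4.3.3): TMM factors, filterByExpr with a minimum count of 10, 1 mean per group, the quasi-likelihood F test, and Benjamini-Hochberg adjustment over all genes tested, with a threshold of 0.05. All 5 members passed the filter in each fit. Segment fits left out the sham 24 h pair numbered 2. The steps were checked on simulated counts. Fold changes are log2 differences with a standard error (SE) from the F statistic. Alternatives used DESeq2 1.42.0, limma 3.58.1 (voom with sample quality weights, and log2 of RPKM or FPKM with pseudocounts of 1 and 0.1), other scalings and filters, and each library left out.

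The members and gene lists were chosen with earlier results of these data known. Named from a list were its genes past the threshold (at most 4), or else the 2 with the smallest p; Slc22a6, Slc25a1, the named factors and Idua, Elmo2 and Celsr3 were added after their values were seen. Some genes that these rules name are not reported here. Reads are not independent molecules, and the number of libraries limits precision.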

Additional observations from a re-analysis of the deposited data

Results flagged for a closer look

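In groups of 4 libraries, a highest or lowest value was marked where its gap to the nearest library was large for the group's range by Dixon's test. Of 80 such groups of the 5 members, 5 were marked, and chance marks about 1 in 20 groups. In nephrectomy S1 tubules at 48 h, library 4 was low in Slc13a1 (288 CPM against 376 to 392) and high in Slc13a3 (569 CPM against 524 to 530.4). In nephrectomy glomeruli at 72 h, library 3 was high in Slc13a1 (37.3 CPM against 6.07 to 7.62) and in Slc13a2 (21.9 CPM against 1.80 to 3.39). In sham whole kidney at 48 h, library 4 was low in Slc26a6 (4.46 CPM against 4.90 to 4.96).

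The library labelled sham 24 h glomeruli number 2, which entered no comparison, was far above the other 11 sham glomerular libraries in 4 members. In CPM of its total counts it held 537 of Slc13a1 (others 1.34 to 12.9), 149 of Slc13a2 (0.448 to 7.35), 767 of Slc13a3 (0.896 to 10.8) and 235 of Slc26a1 (7.05 to 18.3).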

How the results depend on the processing

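Precision was limited by 4 libraries a group, by the spread of the sham kidneys in Slc13a1, and in glomeruli by counts near the floor. Of 285 values of the members recomputed under other settings, 245 kept their direction and side of the threshold, as did 866 of 925 recomputed with 1 library left out. Causes of the shifts below were not tested.

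In whole kidney over the 3 times, 448 genes passed in edgeR, 865 in DESeq2, 1884 in limma voom with sample quality weights, 0 in limma on FPKM with either pseudocount, 785 without the 4 libraries of 24 h numbered 3 and 4, 164 with the marker covariate and 0 with both. Slc13a1 lost its call in limma on FPKM (-1.42 and -1.49) and with covariate and libraries changed together (-0.80). With both changes Slc13a2 was 0.0050 and Slc13a3 0.0376. Slc26a1 was 0.0153 in voom and -0.46 without the 4 libraries, and Slc26a6 was 0.36 in voom and 0.36 with the covariate. Over 48 and 72 h, 154 genes passed, against 378 in DESeq2, 866 in voom, 0 in limma on FPKM, 370 without the 4 libraries, 6 with that and the covariate, and 717 from the 16 libraries of those times alone. Slc13a1 over 48 and 72 h was -1.06 and -1.09 in limma on FPKM. With 1 library left out, the genes called ranged from 242 to 1067 over the 3 times and from 0 to 265 over 48 and 72 h, Slc13a1 over 48 and 72 h from -1.41 to -1.07, and Slc26a1 from -0.48 to -0.30.

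In S1 tubules DESeq2 called 11 genes, Slc13a3 was -0.0035 in voom and -0.11 and -0.12 in limma on RPKM, and Slc13a1 was 0.0652 with the sham 24 h pair kept. With 1 library left out, 0 to 1 genes passed, Slc13a1 ranged from -0.188 to 0.0324 and Slc13a3 from -0.12 to 0.13. In glomeruli DESeq2 called 3 genes and voom 2. Voom gave -0.32 for Slc13a1, -0.56 for Slc13a2 and -0.13 for Slc13a3, and limma on RPKM -0.0128 and -0.137 for Slc13a2 and -0.0537 and -0.0731 for Slc26a6. Keeping the pair gave -1.91, -1.69 and -2.24 for Slc13a1, Slc13a2 and Slc13a3 and -0.0053 for Slc26a6. With 1 library left out, 0 to 1 genes passed, Slc13a1 ranged from -0.0854 to 0.488, Slc13a2 from -0.34 to 0.30, Slc26a1 from -0.247 to 0.0246 and Slc26a6 from -0.0279 to 0.122.

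Between the segments, Slc26a6 turned to 1.199 without TMM factors and to 0.74 and 1.14 in limma on RPKM, and ranged from -0.77 to -0.46 with 1 library left out. The genes called were 9721, against 21295 without TMM factors and 18768 and 18896 in limma on RPKM. The difference of effects between segments was 0.0421 for Slc26a1 without TMM factors. With the pair kept it was 1.97, 1.66, 2.395 and 1.62 for Slc13a1, Slc13a2, Slc13a3 and Slc26a1. For Slc26a6 it ranged from -0.16 to 0.11 with 1 library left out. The difference between kidney and S1 effects was -0.11 for Slc13a2 and 0.0762 for Slc26a1 in voom, -0.14 for Slc13a2 and -0.10 for Slc26a6 over 48 and 72 h, and -0.0312 for Slc13a2 without the 4 libraries, where 1 gene passed. With 1 library left out, Slc13a2 ranged from -0.12 to 0.15, Slc26a6 from -0.0227 to 0.175, and 0 to 1 genes passed.

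The labels do not say whether libraries of the same replicate number share a rat or a batch. With the replicate block in whole kidney, Slc13a1 was -1.58 over the 3 times and -1.30 over 48 and 72 h, both past the threshold, with 419 and 181 genes called. In S1 tubules it was -0.06 and in glomeruli 0.41. In the block across the segments it was -7.54 between segments, and the difference of effects was -0.44 for Slc13a1 and -0.0493 for Slc26a6. Same-numbered pairs correlated above 0.1 in 6 of 12 cases in whole kidney, 5 of 11 in S1 tubules, 2 of 11 in glomeruli and 12 of 23 across segments. Pairs of unlike number did so in 10 of 36, 10 of 33, 9 of 33 and 18 of 66 cases, in the same order. Whether the numbers mark pairs was not tested further.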
